A study of Arabidopsis thaliana with 12 samples.

Results

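CHI (locus AT2G43570) and OSM34 (locus AT4G11650) are defence-related genes of Arabidopsis thaliana, each read here by 1 probe set, and they are 2 of the 13356 genes that a probe set names alone among the 22746 tested. They were taken by locus and gene name. The symbol CHI here stands for the chitinase gene, not for chalcone isomerase. The genes were put forward with earlier results of these data known. CHI was chosen for its large differences between the cs26 mutant and wild type in both photoperiods, and OSM34 for its difference in long days. Their levels are therefore given as a description, with no test. The gene lists below were also chosen with those results known. Their counts beside the share over all probe sets are therefore descriptive too.

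Leaf RNA was measured on Affymetrix ATH1 arrays in 4 groups of 3 arrays. The labels number the replicates but do not say whether they came from separate plants, so p-values measure the spread between these arrays, which may be technical. Wild type was accession Col-0. The mutant was the cs26 line SALK_034133, 1 insertion line of the gene for a chloroplast S-sulfocysteine synthase, and every group grew on soil given Hoagland medium. Long-day plants had 16 h of light and 8 h of dark and were 3 weeks old, and short-day plants had 8 h of light and 16 h of dark and were 5 weeks old, so photoperiod and age cannot be told apart. Both photoperiods ran at 20 °C by day and 18 °C by night. Values are log2 RMA values, so a difference of 1 is a doubling. No probe set here names CS26 alone, which left no check of the genotype labels by that gene.

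Chitinases cut chitin, a polymer of fungal cell walls that plants do not make. Osmotin belongs to the thaumatin-like proteins, the PR-5 group of pathogenesis-related proteins, several of which harm fungal membranes. Plants make many such proteins after infection, under salicylate or under jasmonate and ethylene, and tobacco osmotin was first known from cells adapted to salt. Transcripts of both families are also known to rise in ageing or stressed leaves.

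CHI was high in long-day cs26 and in short-day wild type, and low in long-day wild type and in short-day cs26. In long-day wild type its probe set read 6.27, 5.95 and 6.22 (mean 6.15 ± 0.172, SD, n = 3). In long-day cs26 it read 10.38, 10.39 and 10.33 (10.37 ± 0.0321). The groups lay apart, with a gap of 4.06 between the highest wild-type and the lowest cs26 array, and the mean differed by 4.22 ± 0.17 (log2, SE of the linear model), or 18.6-fold.

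In short days the order was turned. CHI read 11.19, 11.05 and 11.23 in wild type (11.16 ± 0.0945) and 7.49, 6.72 and 7.47 in cs26 (7.23 ± 0.439). All cs26 arrays lay below all wild-type arrays, with a gap of 3.56, and the mean of cs26 minus that of wild type was -3.93 ± 0.17, or 15.2-fold lower in cs26. Replicate 2 of cs26 was the lowest of its group, and it is also the array that deviated most from its group mean over all probe sets (SD 0.208, against 0.104 to 0.155 on the other arrays). Without it the short-day difference was -3.68.

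Set by level, CHI stood highest in short-day wild type, then in long-day cs26, short-day cs26 and long-day wild type. No neighbouring groups in this order overlapped, with gaps of 0.66, 2.84 and 0.45. Within wild type CHI was 5.01 ± 0.17 higher in short than in long days, or 32.2-fold, and within cs26 it was 8.82-fold lower in short days (-3.14 ± 0.17). Among all 22746 probe sets the CHI difference was the 12th in size in long days, the 3rd in short days and the 2nd for the difference between these effects (-8.15 ± 0.241). Between photoperiods it was the 23rd in wild type and the 168th in cs26. CHI was chosen for its large cs26 differences, so its ranks for these follow in part from that choice. The photoperiod ranks use the same arrays, so they are not independent of that choice either.

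OSM34 was high in a single group, long-day cs26. It read 4.38, 4.14 and 4.43 in long-day wild type (4.32 ± 0.155, n = 3) and 6.28, 6.45 and 6.21 in long-day cs26 (6.31 ± 0.123). The groups did not overlap, with a gap of 1.78, and the mean was 2.0 ± 0.122 higher in cs26, or 3.99-fold. OSM34 ranked 282nd by the size of its long-day difference, a rank that follows in part from its choice for that difference. Its cs26 difference in short days ranked 3938th, and its difference between photoperiods in wild type 7485th.

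In short days OSM34 read 4.80, 4.97 and 4.49 in wild type (4.75 ± 0.243) and 4.35, 4.40 and 4.29 in cs26 (4.35 ± 0.0551). The cs26 arrays lay below the wild-type arrays by a gap of only 0.09, and the mean difference was -0.41 ± 0.122, a 1.33-fold lower level. Short-day cs26 and long-day wild type overlapped. In wild type OSM34 was 0.44 ± 0.122 higher in short than in long days (gap 0.06), and in cs26 it was 1.97 ± 0.122 lower on the log2 scale in short days, or 3.91-fold.

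**Figure D1:**
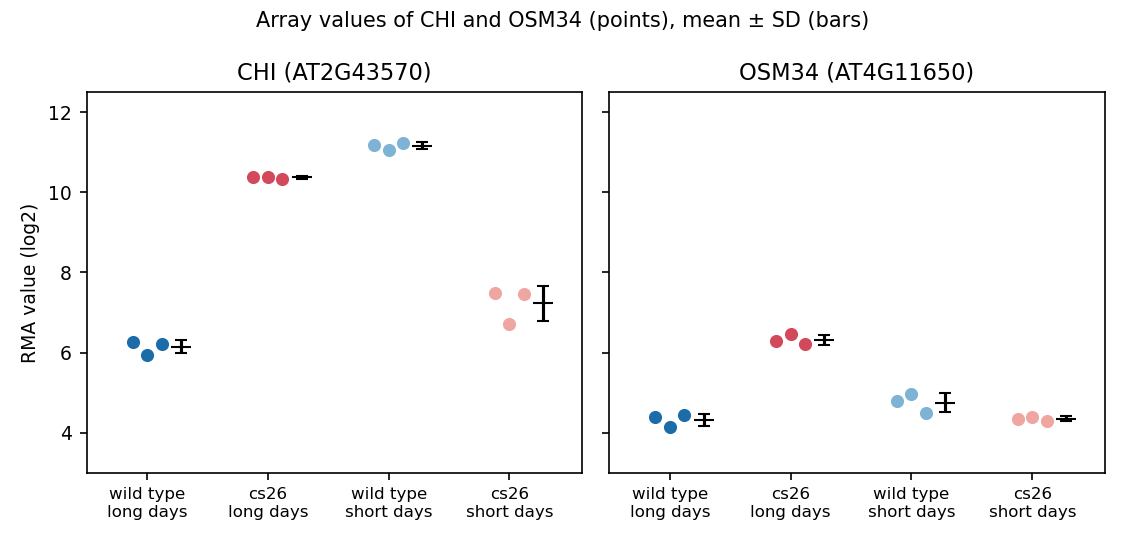
RMA values (log2) of CHI (left) and OSM34 (right) on each of the 12 arrays; points are arrays, and bars give the mean ± SD of each group of 3. CHI read 10.33 to 11.23 in long-day cs26 and short-day wild type and 5.95 to 7.49 in the other groups, while OSM34 exceeded 4.97 in long-day cs26 alone.

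Non-overlap between groups was common on these arrays. The cs26 and wild-type values failed to overlap for 38.2% of all probe sets in long days and for 29.8% in short days, and the photoperiods did so for 55.1% in wild type and 53.0% in cs26. The absence of overlap alone therefore says little about CHI or OSM34.

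Signal ranks, which also depend on the probes themselves, are given for each gene on its own. By rank among the probe sets of an array, CHI lay between the 95.9 and 98.2 percentile in long-day cs26 and short-day wild type, and between the 56.3 and 74.9 percentile in the other groups. OSM34 lay between the 20.0 and 42.6 percentile outside long-day cs26 and between the 60.0 and 63.1 percentile there. Differences between dim values are compressed on such arrays, and the mean brightness of OSM34 over the 12 arrays was below the median of all probe sets.

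Many of the other chitinase genes were higher in long-day cs26, but none of the others measured had a difference as large as that of CHI. CHI was chosen for its large differences, so its place in the family follows in part from that choice. Only 3 of the 14 others were not dim (mean brightness at or above the median), and differences between dim values are compressed. Of 24 loci listed for the family, 15 had a probe set naming the gene alone, CHI included. The gene table gives a chitinase product for CHI and for ChiC, a class V chitinase, and the other loci were placed in the family from general knowledge. In long days 7 of the 14 other genes rose and 0 fell, where 12.8% of all probe sets were called higher and 11.8% lower (limma, adjusted p under 0.05; 7 and 0 also at an unadjusted p under 0.05). The median difference over the 14 was 0.17, against -0.01 over all probe sets.

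AT3G47540 read 6.31 to 6.67 in long-day wild type and 8.04 to 8.21 in long-day cs26, a rise of 1.59 ± 0.117 (limma adjusted p = 5.25e-07). AT4G01700 rose by 1.29 ± 0.102, from 7.54 to 7.72 in wild type to 8.86 to 9.04 in cs26. AT2G43590 rose by 1.12 ± 0.146 and AT1G02360 by 1.09 ± 0.101. None of these had overlapping groups in long days.

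ChiC rose by 0.72 ± 0.133, and its groups did not overlap (4.29 to 4.93 in wild type, 5.20 to 5.41 in cs26). AT2G43620 (0.46 ± 0.136) and AT2G43610 (0.27 ± 0.0778) passed the test by little. The AT2G43620 call was lost without replicate 2 or 3 of either long-day group (highest adjusted p over the settings tried 0.119). That of AT2G43610 ended when wild-type replicate 1 or cs26 replicate 2 or 3 was left out (highest 0.101). The other 7 genes, of which AT4G19820, AT4G19730, AT4G19720, AT4G19740 and AT1G56680 read no higher than 4.52 on any array, differed by -0.16 to 0.07 in long days.

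In short days 2 of the 14 other chitinase genes fell and 0 rose, where 7.84% of all probe sets were called lower and 8.89% higher (limma; 2 and 0 at an unadjusted p under 0.05). AT4G01700 fell by 0.84 ± 0.102, from 6.81 to 6.93 in wild type to 5.88 to 6.23 in cs26 (adjusted p = 1.36e-04). AT1G02360 fell by 0.37 ± 0.101 (limma adjusted p = 0.0252), a call that ended when wild-type replicate 2 or 3 or cs26 replicate 1 or 2 was left out (adjusted p up to 0.0946). AT4G01700 and AT1G02360 were thus called in opposite directions in the photoperiods, which 4.29% of all probe sets were in this order. AT3G47540 measured -0.18 ± 0.117 in short days (limma adjusted p = 0.361).

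The difference between the effects was called for 6 of the 14 genes, all lower in short than in long days, where 27.6% of all probe sets were called and 12.7% were lower (limma). It was -2.13 ± 0.144 for AT4G01700, -1.76 ± 0.165 for AT3G47540 and -1.46 ± 0.143 for AT1G02360, beside -8.15 for CHI. Between photoperiods in wild type, 1 of the 14 rose in short days and 2 fell, where 21.8% of all probe sets were called higher and 23.0% lower (44.8% in all). Without replicate 1 of long-day wild type 3 rose. AT3G47540 rose by 1.92 ± 0.117 in short-day wild type, and AT4G01700 fell by 0.79 ± 0.102 and AT2G43580 by 0.32 ± 0.0861. In cs26, 7 of the 14 fell in short days and 0 rose, with 21.8% of all probe sets called lower and 43.3% called in all (4 without replicate 2 or 3 of long-day cs26 or replicate 2 of short-day cs26). These photoperiod comparisons share arrays with the cs26 comparisons.

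CHI begins a run of chitinase loci on its chromosome, and the genes after it in that run had smaller differences, beside a CHI chosen for the size of its own. In the gene table AT2G43580, AT2G43590, AT2G43600 and AT2G43610 follow it directly, and AT2G43620 comes after 2 RNA genes. AT2G43580, the next gene, read 4.72 to 4.97 in long-day wild type and 4.61 to 4.79 in long-day cs26, a difference of -0.16 ± 0.0861 (limma adjusted p = 0.243). AT2G43590, the gene after it, read 5.13 to 5.45 in long-day wild type and 6.19 to 6.55 in long-day cs26, but 5.05 to 5.22 and 4.67 to 5.22 in short days. AT2G43600, named here for its place, stayed between 3.75 and 4.11 on all 12 arrays.

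On the other side of CHI, AT2G43560 was not called in either cs26 comparison (0.27 and 0.28, limma adjusted p = 0.0589 and 0.0599). It was called in long days in several other settings, such as without replicate 3 of long-day wild type (lowest limma adjusted p over the settings 0.0386). In short days it was called without wild-type replicate 1 (0.0263). AT2G43550 fell in both comparisons, by 0.63 ± 0.167 under long days and 0.60 ± 0.167 under short days. The AT2G43550 call in long days was lost without replicate 1 of cs26 (limma adjusted p = 0.063), and that in short days without wild-type replicate 1 or 2 or cs26 replicate 2 (up to 0.111). Around OSM34 the nearest named genes were SR, a serine racemase gene, AT4G11610, AT4G11670 and AT4G11690. They lie 3, 5, 5 and 8 genes away, and the genes nearer to OSM34 have no probe set naming them alone. Limma called 0 of these 4 in the cs26 comparisons, where 24.6% of all probe sets were called in long days and 16.7% in short days. Their differences were -0.12 to 0.18 under long days and -0.16 to 0.35 under short days.

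**Figure D2:**
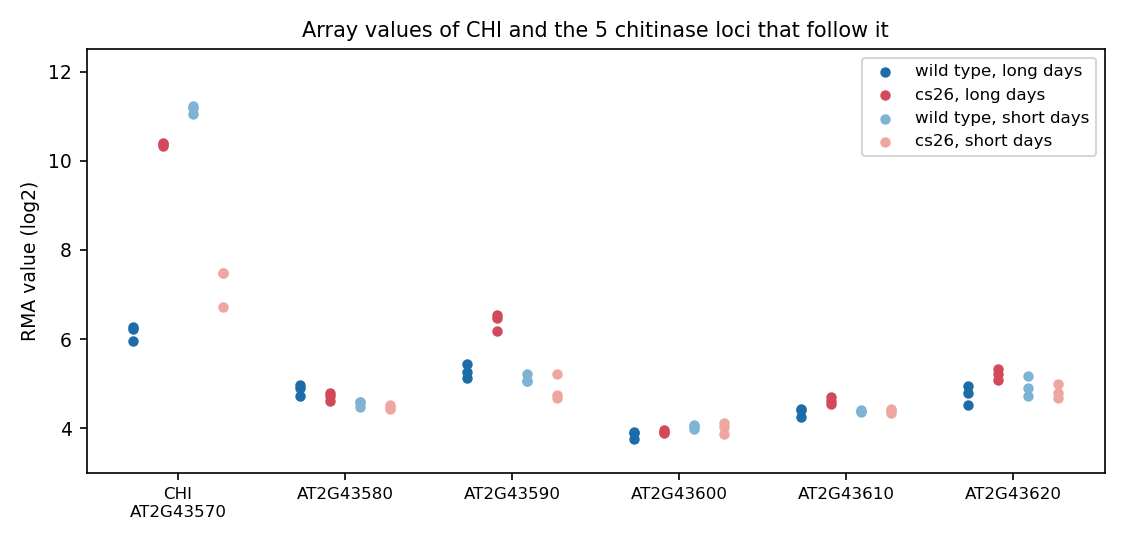
RMA values (log2) on each of the 12 arrays (points, coloured by group) of CHI and the 5 chitinase loci that follow it in the gene table. CHI ranges from 5.95 to 11.23, AT2G43590 is raised in long-day cs26 (6.19 to 6.55), and AT2G43600 stays between 3.75 and 4.11; levels of different probe sets are not comparable.

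In the thaumatin and osmotin family, fewer genes were higher in long-day cs26, and OSM34 was not the gene with the largest difference. Of 23 loci listed, 19 had a probe set naming the gene alone, OSM34 included. In long days 4 of the 18 other genes rose and 1 fell (limma, background 12.8% higher and 11.8% lower), with a median difference of 0.10 against -0.01 over all probe sets. The share called, 27.8%, was close to the 24.6% over all probe sets.

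AT2G28790 read 5.45, 5.62 and 5.63 in long-day wild type and 8.15, 8.32 and 7.68 in long-day cs26, a rise of 2.48 ± 0.139 or 5.59-fold (limma adjusted p = 4.59e-08), and 6.20 to 6.47 on all short-day arrays. ATLP-1, a thaumatin-like protein gene, read 5.15 to 5.22 in long-day wild type and 6.5 to 6.71 in long-day cs26, a rise of 1.44 ± 0.0923 (adjusted p = 1.52e-07). AT1G73620 rose by 0.73 ± 0.13. AT4G38660 was called at 0.66 ± 0.217 (limma adjusted p = 0.0409), but its groups overlapped, and leaving out replicate 2 or 3 of long-day wild type, replicate 1 or 2 of long-day cs26, replicate 1 of short-day wild type or replicate 3 of short-day cs26 ended the call (highest adjusted p over the settings tried 0.179). AT1G75800 went the other way and fell by 0.62 ± 0.128.

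In short days limma called 0 of the 18 other family genes in cs26 (1 higher and 5 lower at an unadjusted p under 0.05), where 16.7% of all probe sets were called. Without replicate 1 or 3 of short-day wild type 1 was called higher. Without replicate 2 of long-day wild type, replicate 3 of short-day wild type or replicate 2 of short-day cs26, 1 was called lower. The same lower count came with a replicate block, array weights or a trended robust prior. Differences of the 18 genes ran from -0.31 to 0.61. AT1G70250 has 2 probe sets that disagreed: the brighter measured 0.28 ± 0.146 and the dimmer, called by itself, -0.40 ± 0.0844. The difference between the effects was called lower in short days for 5 of the 18 and higher for AT1G75800, where 12.7% of all probe sets were called lower and 14.8% higher. The lower count was 3 without replicate 1 or 2 of short-day wild type, replicate 1 or 2 of long-day cs26 or replicate 1 or 3 of short-day cs26, and the higher count was 2 without replicate 3 of short-day wild type or replicate 2 of short-day cs26. Between photoperiods in wild type 3 rose and 3 fell, where 21.8% of all probe sets were called higher and 23.0% lower (44.8% in all, against 33.3% of the family), with AT4G36010 at 1.0 ± 0.145 and AT1G75800 at -2.10 ± 0.128. In cs26 2 rose and 8 fell in short days, where 21.5% of all probe sets were called higher and 21.8% lower.

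**Figure D3:**
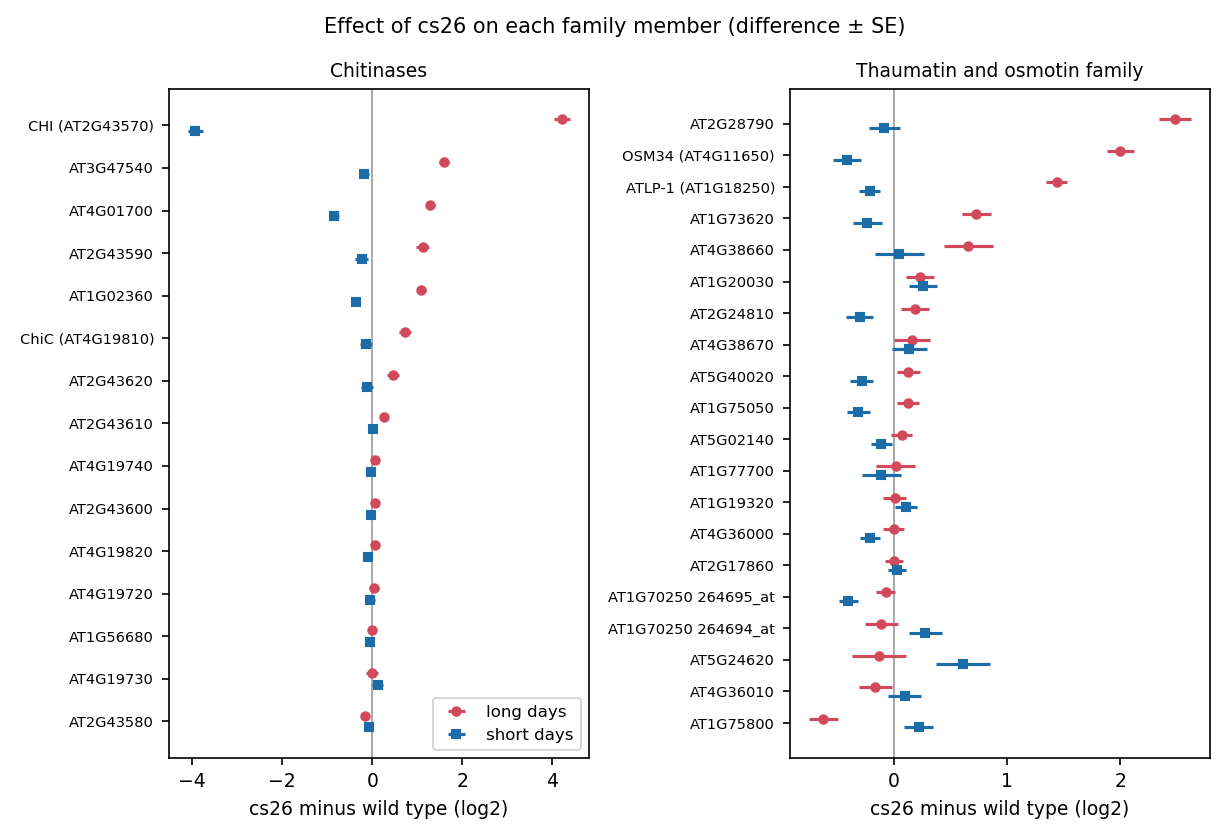
Difference of cs26 minus wild type (log2, ± SE) in long days (circles) and short days (squares) for each measured chitinase gene (left) and thaumatin or osmotin family gene (right), sorted by the long-day difference. CHI stands at 4.22 and -3.93, whereas no other chitinase exceeds 1.59 in long days, and OSM34 at 2.0 lies below AT2G28790 at 2.48.

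Of 20 other pathogenesis-related proteins listed, 7 were measured, and 2 of these rose in cs26 in both photoperiods, where 12.8% and 8.89% of all probe sets were called higher. PDF1.2, a defensin gene known to respond to jasmonate and ethylene, rose by 2.88 ± 0.15 under the long photoperiod and by 3.58 ± 0.15 under the short one. PDF1.2b rose by 2.90 and 2.49, but its probe set may also pick up PDF1.2 transcripts. The remaining 5 genes, THI2.1, AT4G33720, PR-1-LIKE and LCR67 among them, differed by -0.08 to 0.25 under long days and by -0.20 to 0.16 under short days, and limma called none of these 5 in either.

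Among the regulators listed, GRX480, a salicylate-induced glutaredoxin gene, and WRKY53, a transcription factor gene of leaf ageing, were called in the same directions as the CHI differences. GRX480 read 5.5 to 5.84 in long-day wild type, 8.13 to 8.34 in long-day cs26, 8.29 to 8.61 in short-day wild type and 6.61 to 7.0 in short-day cs26. WRKY53 rose by 2.48 ± 0.124 under long days and fell by 2.02 ± 0.124 under short days, and WRKY6 rose by 1.36 and fell by 0.32. The short-day WRKY6 call was lost without replicate 1 or 2 of either short-day group (limma adjusted p up to 0.105). SAG101, a partner in salicylate immunity, measured 0.50 under long days and -0.54 under short days, neither called by limma (adjusted p = 0.0951 and 0.0885). These are 2 of 18 salicylate genes and 2 of 8 senescence genes listed, so most of either list was not measured.

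In the jasmonate and ethylene list 3 of 19 genes were measured. MYC4 fell by 1.5 ± 0.192 in long-day cs26 and MYC3 by 0.36 ± 0.11, both jasmonate transcription factor genes, and EIN3, of ethylene signalling, measured -0.51 (limma adjusted p = 0.0643). The MYC3 call was lost without replicate 2 or 3 of either long-day group (adjusted p up to 0.138). Limma called 0 of the 3 in short days (1 at an unadjusted p under 0.05), where 16.7% of all probe sets were called, and MYC4 measured 0.48. Of the osmotic, cold and abscisic acid genes, 4 of 14 were measured. COR15A, COR15B, COR47 and LTI30 all fell in long-day cs26, with differences of -5.4, -4.9, -2.33 and -0.95. Over all probe sets 11.8% were called lower, but this list was chosen with earlier results known, so its count is a description. In short days COR15A and COR15B rose by 0.80 and 0.98, LTI30 fell by 0.78, and COR47 measured 0.00. The short-day COR15A call was lost without replicate 2 of wild type (limma adjusted p = 0.0549).

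Genes with profiles like that of CHI were sought among the 13512 other probe sets that name 1 gene, by the root mean square difference of log2 values over the 12 arrays after centring each probe set on its own mean. The 6 nearest were SAL2, AT3G01830, AT5G39670, CML41, AT2G44240 and AT2G18690, at 0.555 to 0.795, beside a spread of CHI about its own mean of 2.10 on the same scale. SAL2 is a relative of the phosphatase gene SAL1 and CML41 encodes a calmodulin-like calcium sensor. SAL2 had means of 5.15 in long-day wild type, 8.70 in long-day cs26, 8.75 in short-day wild type and 5.77 in short-day cs26. None of the 6 is in the chitinase list. The profiles share all 12 arrays.

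The 6 genes nearest to OSM34 were AT1G06620, GH9B13, AT4G29020, AT3G26470, ACLA-2 and ATLP-1, at 0.193 to 0.23 beside an OSM34 spread of 0.83. GH9B13 belongs to glycosyl hydrolase family 9 and ACLA-2 encodes a subunit of ATP-citrate lyase. ATLP-1 is also in the thaumatin and osmotin list. GH9B13 had means of 4.48, 6.73, 4.82 and 4.43 in long-day wild type, long-day cs26, short-day wild type and short-day cs26. CHI and OSM34 differed from each other by 1.72 on this scale. That placed OSM34 at rank 246 among the 13512 candidates from CHI, and CHI at rank 13381 of 13512 from OSM34. The scale keeps the size of the changes, and the spread was 2.1 for CHI against 0.83 for OSM34. These ranks therefore do not compare shape alone. By correlation, which leaves size out, CHI and OSM34 went in the same direction (0.618 by Pearson, 0.657 by Spearman). Both were chosen with a difference in long days known, so these values follow in part from that choice. The profiles parted in short-day wild type, where CHI was highest but OSM34 had a mean of 4.75 against 6.31 in long-day cs26.

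**Figure D4:**
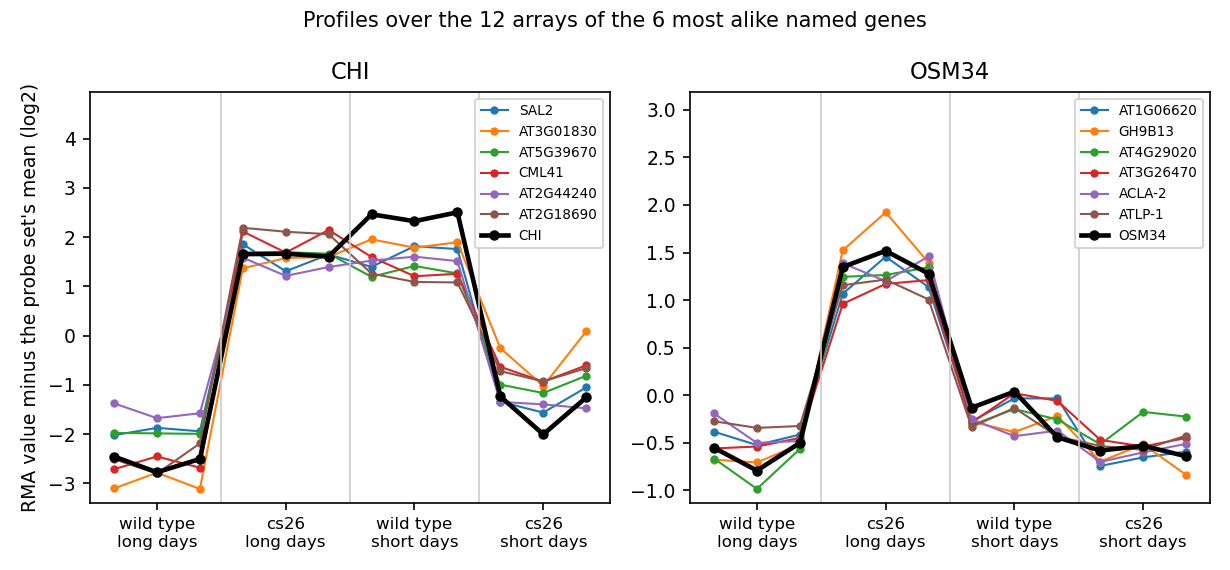
RMA values minus the mean of each probe set (log2) over the 12 arrays, grouped by genotype and photoperiod, for CHI (left) and OSM34 (right, thick black lines) and the 6 named genes nearest to each. The CHI set is high in long-day cs26 and short-day wild type, and the OSM34 set in long-day cs26, with root mean square differences of up to 0.795 and 0.23.

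Some measures of tissue and arrays moved with the groups. In a bulk leaf sample fewer cells of a type and less RNA per cell cannot be told apart. PYK10, a beta-glucosidase gene known from roots and hypocotyls, read 3.71 to 4.15 in long-day wild type, 6.53 to 6.64 in long-day cs26 and 3.90 to 4.00 in short days, which is also where OSM34 was high. The other root markers measured, EXPA7 and UGT72E2 (3 of 6 listed in all), read 4.42 to 5.29 on every array. The summed linear level of the 3 was 156 to 162 in long-day cs26 and 65.9 to 79.8 in the other groups.

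The mesophyll markers RCA, LHCB4.1 and LHCB4.2 (3 of 14 listed) were bright in every group, with a summed level of 26800 to 38800, and LHCB4.2 fell by 1.32 ± 0.0896 in long-day cs26. The vascular SWEET11 (1 of 6) measured -0.06 and 0.22 in the cs26 comparisons, neither called by limma. Of the epidermal markers (3 of 8), TRY fell by 0.48 under long days and rose by 0.97 under short days, SPCH rose by 0.36 in long days and FMA was not called. The long-day TRY call ended when wild-type replicate 2 or 3 or any cs26 replicate was left out (limma adjusted p up to 0.167). AUR1, of dividing cells (1 of 5), was not called in either photoperiod. The 27 Bacillus control probe sets averaged 6.68 to 6.81 in long-day wild type, 6.19 to 6.37 in long-day cs26, 5.45 to 5.5 in short-day wild type and 5.43 to 5.93 in short-day cs26. The 3' minus 5' signal of the ubiquitin control was 1.28 to 1.35 in long-day wild type and 1.46 to 1.49 in long-day cs26, and overlapped between genotypes in short days. For the GAPDH and actin controls it overlapped between genotypes in both photoperiods. The GAPDH and actin means were lower in long-day cs26 than in long-day wild type (0.89 against 1.05 and 2.86 against 3.16). In short days they were higher in cs26 than in wild type (1.22 against 1.12 and 3.82 against 3.43). Within cs26 actin measured 2.6 to 3.18 in long days and 3.72 to 3.99 in short days, and GAPDH 0.87 to 0.92 and 1.19 to 1.27. The part of these in the CHI and OSM34 differences was not tested.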

How the data were processed

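The authors deposited log2 values of 22810 probe sets on 12 arrays, made with RMA and the affy package, per the submitters' processing notes. No tool version is given in the sources used here, nor whether all arrays were normalised together. From these values, 64 control probe sets were left out, and 22746 entered 1 limma 3.58.1 model (R 4.3.3) with a mean per group (8 residual and 4.32 prior degrees of freedom). Benjamini-Hochberg adjustment ran over all 22746, with calls under 0.05. The model was checked on simulated data. Array medians lay between 5.42 and 5.51, and the number of arrays limits precision.

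Probe sets were named from the platform annotation and the TAIR10.1 gene table, of which 13513 name 1 gene, and that table served for names, products, gene types and gene order, not coordinates. The members and lists were chosen with earlier results of these data known. Named genes were CHI, OSM34, the 12 brightest others of each family, up to 6 of each other list, neighbours and nearest profiles. AT1G56680, AT2G43600 and AT1G75050 lie outside that rule and were named after their values were seen. For a gene with several probe sets the brightest stood for it in counts. Alternatives were quantile normalisation, median centring, a replicate block, array weights, a trended robust prior, a filter on dim probe sets, 6-array fits and each array left out. A locus whose family was unsure was dropped from the thaumatin list after the files were seen.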

Additional observations from a re-analysis of the deposited data

Results flagged for a closer look

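The effect of cs26 differed between short and long days for 25 of the other listed genes, where 27.6% of all probe sets were called. These were 6 of 14 chitinases (42.9%) and 6 of 18 genes of the thaumatin and osmotin family (33.3%). They also held 1 of 7 other pathogenesis-related, 2 of 2 salicylate and 1 of 3 jasmonate and ethylene genes. Of the osmotic and cold genes 3 of 4 were called, and of the senescence genes 2 of 2. Of tissue markers 1 of 3 mesophyll, 1 of 3 root, 0 of 1 vascular, 1 of 3 epidermal and 1 of 1 dividing-cell genes were called. The lists were chosen with earlier results of these data known, so these shares are a description. Values are the short-day minus the long-day effect (log2). For CHI (-8.15) and OSM34 (-2.40) every cs26 array was above wild type in long days and below it in short days, and this difference was not tested because both genes were chosen with these results known. Such non-overlap held for 38.2% of all probe sets in long days and for 29.8% in short days. The short-day gap was 3.56 for CHI but only 0.09 for OSM34, whose short-day difference was -0.41. The limma test of the difference, adjusted over all probe sets, called the values that follow.

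Among chitinases these were AT4G01700 (-2.13), AT3G47540 (-1.76), AT1G02360 (-1.46), AT2G43590 (-1.35), ChiC (-0.85) and AT2G43620 (-0.58). In the thaumatin and osmotin family they were AT2G28790 (-2.56), ATLP-1 (-1.65), AT1G73620 (-0.97), AT1G75050 (-0.43), AT5G40020 (-0.41) and AT1G75800 (0.84). Among defence, hormone and senescence genes they were WRKY53 (-4.50), GRX480 (-4.12), WRKY6 (-1.68), SAG101 (-1.04), PDF1.2 (0.70) and MYC4 (1.97). Among osmotic and cold genes they were COR15A (6.20), COR15B (5.87) and COR47 (2.33). Among tissue markers PYK10 (-2.71), AUR1 (-0.54), LHCB4.2 (1.25) and TRY (1.45) were called. The calls of AT2G43620, AT5G40020, AT1G75050, PDF1.2 and AUR1 were each lost when any of several single arrays was left out (adjusted p up to 0.0999, 0.103, 0.0854, 0.0663 and 0.119).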

How the results depend on the processing

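Of 150 recomputed member differences, 147 moved by less than 1 SD between replicates and none changed sign. The other 3 arose for CHI without replicate 2 of short-day cs26. Many of the 150 could not move, so the count of 147 overstates the stability. Leaving out an array of a group not compared returns the same difference, as does the replicate block. Over the arrays left out in turn, CHI ranged from -4.06 to -3.68 in short days, from -8.28 to -7.90 for the difference of effects and from -3.27 to -2.89 between photoperiods in cs26. Of 6223 recomputed listed-gene values, 196 lost a call, 81 gained one and none that was called turned its sign. With dim probe sets (mean brightness under the median) removed, 3 of the 14 other chitinases, 5 of the 18 thaumatin family genes and CHI were left, but not OSM34. The listed genes called then fell from 25 to 16 for the difference of effects and from 35 to 21 between photoperiods in cs26. Removed genes could not be called, so these lower counts do not by themselves mean weaker differences. Over all probe sets the calls went from 6268 of 22746 to 5181 of 11378 for the difference of effects. Between photoperiods in cs26 they went from 9849 to 7028. In that setting 3 chitinases and 2 thaumatin family genes rose in long days. The labels do not say whether replicate numbers pair the arrays. Deviations of same-numbered arrays from their group means correlated by -0.31 to 0.162. With 3 arrays per group, these values cannot show whether replicates were grown or processed in blocks. With the replicate number as a block, the listed genes called were 24 in long days (27 without) and 12 in short days (11 without), 22 for the difference of effects (25 without), 26 between photoperiods in wild type (27 without) and 32 in cs26 (35 without). By Pearson r in place of the root mean square difference, 2 of the 6 nearest genes of CHI and 3 of those of OSM34 were shared. Dim probe sets limit what differences can be seen, OSM34 among them.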
